A study of Mus musculus with 8 samples.

Results

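Mfsd2a and 6 genes of the caveolar route, Cav1, Cav2, Plvap, Ehd2, Pacsin2 and Dnm2, were followed in mouse brain vessels whose basal lamina had been digested and in vessels that had not. The 7 genes were chosen by symbol for their role in vesicular transport across the endothelium, and each was represented by its transcript cluster, the probe set that an array carries for a gene, with the highest mean over the 8 arrays. All 7 lay above the background floor, out of 16217 named genes above it and 22180 named genes in all. The arrays were Affymetrix Mouse Gene 2.0 arrays, 4 of digested and 4 of undigested vessels, all from 2-month-old male C57Bl6 mice without any transgene. In digested vessels a warm incubation with Liberase and DNAse took the place of the mechanical homogenization used for undigested vessels, so that enzyme, warmth and the missing homogenization cannot be told apart. Each preparation pooled the vessels of several mice, and the study used the comparison to look for transcripts lost from vessels together with the perivascular endfeet of astrocytes. Levels are given on the log2 scale, and each difference is the digested level minus the undigested one.

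Mfsd2a is the transporter by which endothelial cells of the blood-brain barrier take up lysophospholipids that carry docosahexaenoic acid, and its activity is known to hold down the number of caveolar vesicles in these cells. Caveolae are flask-shaped pits of the plasma membrane. Cav1 and Cav2 encode the caveolins of their coat, Ehd2 an ATPase at the neck, Pacsin2 a membrane-bending F-BAR protein, and Dnm2 the GTPase dynamin that cuts vesicles free. Plvap encodes the protein of the diaphragms that span fenestrae and caveolae of peripheral capillaries and is scarce in mature barrier endothelium.

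The promoters of the 3 genes that passed the test of the comparison, Mfsd2a, Pacsin2 and Dnm2, are shown because these genes changed in different directions. Each line holds the 250 bases before the transcription start in RefSeq (GRCm38.p6), at chr4:122961189-122961438 on the minus strand for Mfsd2a, chr15:83464607-83464856 on the minus strand for the first of 3 Pacsin2 windows, and chr9:21424658-21424907 on the plus strand for Dnm2. Capitals mark matches on either strand to any of 5 motifs. The first was CTTTGA, the core of the TCF/LEF sites through which Wnt signalling acts. The GC box was searched as GGGCGG and the CCAAT box by the letters of its name. The TATA box was searched as TATAAA, and the E-box was searched as CACGTG.
Mfsd2a: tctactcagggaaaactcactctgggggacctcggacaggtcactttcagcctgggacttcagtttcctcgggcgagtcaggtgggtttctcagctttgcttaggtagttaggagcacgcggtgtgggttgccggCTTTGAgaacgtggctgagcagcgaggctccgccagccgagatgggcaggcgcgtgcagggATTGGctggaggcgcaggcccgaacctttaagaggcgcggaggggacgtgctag
Pacsin2: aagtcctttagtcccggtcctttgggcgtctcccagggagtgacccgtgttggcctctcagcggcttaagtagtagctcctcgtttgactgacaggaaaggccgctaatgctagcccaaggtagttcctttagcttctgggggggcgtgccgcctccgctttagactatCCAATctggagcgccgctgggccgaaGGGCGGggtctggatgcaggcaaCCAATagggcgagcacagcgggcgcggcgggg
Dnm2: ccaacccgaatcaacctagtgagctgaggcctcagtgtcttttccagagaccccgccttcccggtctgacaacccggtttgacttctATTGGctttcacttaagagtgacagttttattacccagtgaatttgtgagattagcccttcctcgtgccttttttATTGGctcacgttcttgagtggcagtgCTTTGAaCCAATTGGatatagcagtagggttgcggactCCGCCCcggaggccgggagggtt
The CTTTGA core stood once in the Mfsd2a window, with its first base at position -115 from the start, and once in that of Dnm2, at position -61. It was found in 13.8% of 32851 promoter windows of this length. The Mfsd2a window held 1 CCAAT match and no GC box. The Pacsin2 window held 1 GC box and 2 CCAAT matches, and that of Dnm2 held 1 GC box and 4 CCAAT matches, of which 2 overlap each other in the letters CCAATTGG. GC boxes occurred in 32.7% and CCAAT in 33.8% of all windows. TATAAA, in 12.4% of all windows, and CACGTG, in 6.0%, did not occur in the 3 windows shown. The 6 genes with a RefSeq window also included Cav1, Cav2 and Ehd2, and none of their windows held CTTTGA. A match of letters is a description of the sequence and not a measured binding site.

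Of the 7 genes, Mfsd2a had the largest difference. Its level was 7.44, 7.79, 7.68 and 8.23 in the 4 digested preparations, against 10.25, 10.44, 9.71 and 9.66 in the 4 undigested ones. The groups did not overlap, and the highest digested preparation lay well under the lowest undigested one. Mfsd2a thus averaged 7.79 ± 0.33 in digested and 10.01 ± 0.39 in undigested vessels (SD, n = 4 each), a difference of -2.23 (SE 0.21, 95% confidence interval -2.71 to -1.75), or 4.69-fold lower (limma, adjusted p = 0.000558). Of 16217 named genes, 7 were lowered more. Within undigested vessels, preparations 3 and 4 lay 0.66 below preparations 1 and 2 on average. Within digested vessels, preparations 3 and 4 averaged 7.95 and preparations 1 and 2 averaged 7.62. The difference was -2.73 between the preparations numbered 1 and 2 and -1.73 between those numbered 3 and 4, although the numbers do not pair the samples. In a bulk preparation, fewer cells that carry a transcript and less of the transcript per cell cannot be told apart.

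**Figure D1:**
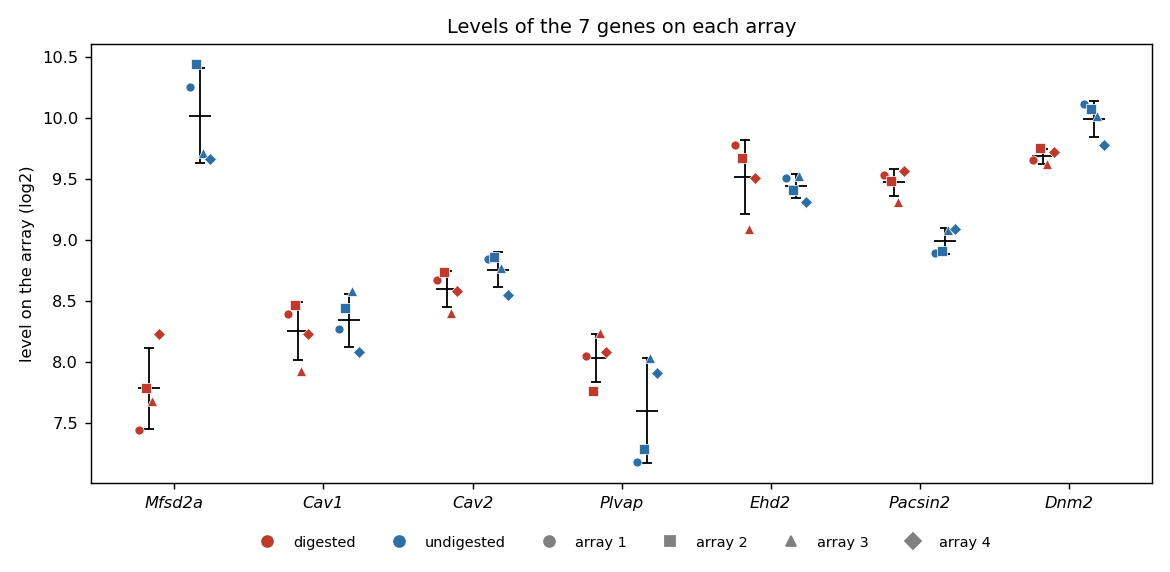
Level of each gene (log2, vertical axis) on the 4 digested (red) and 4 undigested (blue) arrays, with the mean and SD as black bars and the array number as the symbol. Mfsd2a is separated between the groups, Pacsin2 and Dnm2 are separated by smaller gaps, and the other 4 genes overlap.

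Of the 7 genes, 3 passed the test, 2 lowered (Mfsd2a and Dnm2) and 1 raised (Pacsin2), and the same 3 had no overlap between the groups. Over all 16217 named genes, 9.04% were lowered, 14.4% were raised and 29.6% had no overlap. Counts of this size among 7 genes are therefore read gene by gene. The 6 genes other than Mfsd2a differed by 1.05- to 1.39-fold between the groups. Mfsd2a was the 1 gene of the 7 that met the thresholds of the study's methods, an unadjusted p of 0.05 and a 2-fold change. The study lists Mfsd2a too among the transcripts depleted by digestion, a list it assigns to astrocyte endfeet. Which cells the lost Mfsd2a transcript came from was not tested here.

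The caveolins of the coat overlapped between the groups. Cav1 was at 8.39, 8.47, 7.93 and 8.23 in digested and 8.27, 8.44, 8.58 and 8.08 in undigested vessels, a difference of -0.09 (95% confidence interval -0.41 to 0.23, limma, adjusted p = 0.698). Cav2, which assembles with Cav1, was at 8.67, 8.74, 8.40 and 8.58 in digested and 8.84, 8.86, 8.77 and 8.55 in undigested vessels, a difference of -0.16 (-0.39 to 0.08, limma, adjusted p = 0.322). In both genes the lowest digested level was that of preparation 3 and the lowest undigested level that of preparation 4. The intervals leave out a lowering of Cav1 or Cav2 as large as that of Mfsd2a, but not one of up to 0.41 or 0.39.

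The 3 genes that act at the neck of the pit did not move together. Ehd2 was at 9.78, 9.67, 9.09 and 9.51 in digested and 9.51, 9.41, 9.52 and 9.31 in undigested vessels, a difference of 0.07 (95% confidence interval -0.25 to 0.39, limma, adjusted p = 0.753). Digested preparation 3 was again the lowest of all 8. Pacsin2 was at 9.53, 9.48, 9.31 and 9.56 in digested and 8.89, 8.91, 9.08 and 9.09 in undigested vessels. All digested preparations lay above all undigested ones, and Pacsin2 rose by 0.48 (SE 0.09, 0.27 to 0.68), 1.39-fold (limma, adjusted p = 0.00681). The rise was 0.38 and no longer passed without undigested preparations 1 and 2 (adjusted p = 0.0689). Dnm2 was at 9.65, 9.75, 9.62 and 9.72 in digested and 10.11, 10.07, 10.01 and 9.78 in undigested vessels. The groups came within a few hundredths of each other, at digested preparation 2 and undigested preparation 4. Dnm2 fell by 0.31 (SE 0.09, -0.51 to -0.10), 1.24-fold (limma, adjusted p = 0.0418), and the call was lost when any 1 of 7 of the 8 preparations was left out (adjusted p = 0.0591 to 0.106) and kept, at 0.0182, only without undigested preparation 4.

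Plvap, the diaphragm gene, was at 8.05, 7.76, 8.24 and 8.08 in digested and 7.18, 7.29, 8.03 and 7.91 in undigested vessels. Undigested preparations 3 and 4 reached the digested range, while preparations 1 and 2 lay below it. The difference of 0.43 did not pass the test (SE 0.20, 95% confidence interval -0.02 to 0.88, limma, adjusted p = 0.16). It was 0.67 between the preparations numbered 1 and 2 and 0.19 between those numbered 3 and 4, and within undigested vessels preparations 3 and 4 exceeded 1 and 2 by 0.74. Without undigested preparations 3 and 4 the difference was 0.80 (limma, adjusted p = 0.0113), and with the 1 and 2 against 3 and 4 division as a block it was 0.43 (limma, adjusted p = 0.0354). This division was known from earlier results of these data and no label names it. The markers of the epithelium of the choroid plexus, an organ with fenestrated capillaries, were also lowest in undigested preparations 1 and 2. The mean of its 14 measured markers was 10.20, 9.92, 10.47 and 10.51 in digested and 8.52, 8.40, 9.31 and 9.29 in undigested vessels. Of these 14 markers 12 rose (85.7%, against 14.4% of all named genes) and 0 fell (against 9.04%). The median difference was 1.45, and undigested preparations 3 and 4 exceeded 1 and 2 by 0.84. Being lowest in undigested preparations 1 and 2 was not particular to choroid plexus. The marker means there were also the lowest of all arrays for oligodendrocytes (6.09 and 6.12), neurons (7.51 and 7.57) and smooth muscle (9.31 and 9.35). The lead marker Ttr, the transthyretin of choroid plexus epithelium, was abundant in both groups, at 13.58 ± 0.02 in digested and 13.31 ± 0.13 in undigested vessels (SD, n = 4 each, limma, adjusted p = 0.0522). The part of choroid plexus in the Plvap level was not tested.

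Mfsd2a was then set against each of the other 6 genes on the same array, which removes any scaling that shifts a whole array. The level of one probe set relative to another has no meaning by itself, and the comparison of that difference between the groups is what is read. Mfsd2a minus Cav1 was -0.94, -0.67, -0.25 and 0.00 in digested and 1.97, 2.01, 1.13 and 1.58 in undigested vessels, a change of -2.14. The change was -2.07 against Cav2, -2.66 against Plvap, -2.30 against Ehd2, -2.71 against Pacsin2 and -1.92 against Dnm2. For each of the 6 differences the groups did not overlap, with an exact two-sided permutation p of 0.0286 (adjusted 0.0286), the smallest that the 70 assignments of 8 arrays allow. Mfsd2a and each of the 6 other genes thus changed by unequal amounts. All 6 differences hold the same Mfsd2a values, so they largely restate the Mfsd2a difference and are not 6 independent results. The gap to Plvap and to Pacsin2 depended on which undigested preparations were used, at -1.96 and -2.28 without preparations 1 and 2, and at -3.36 and -3.13 without preparations 3 and 4. With 2 undigested preparations the smallest p that can be reached is 0.0667.

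**Figure D2:**
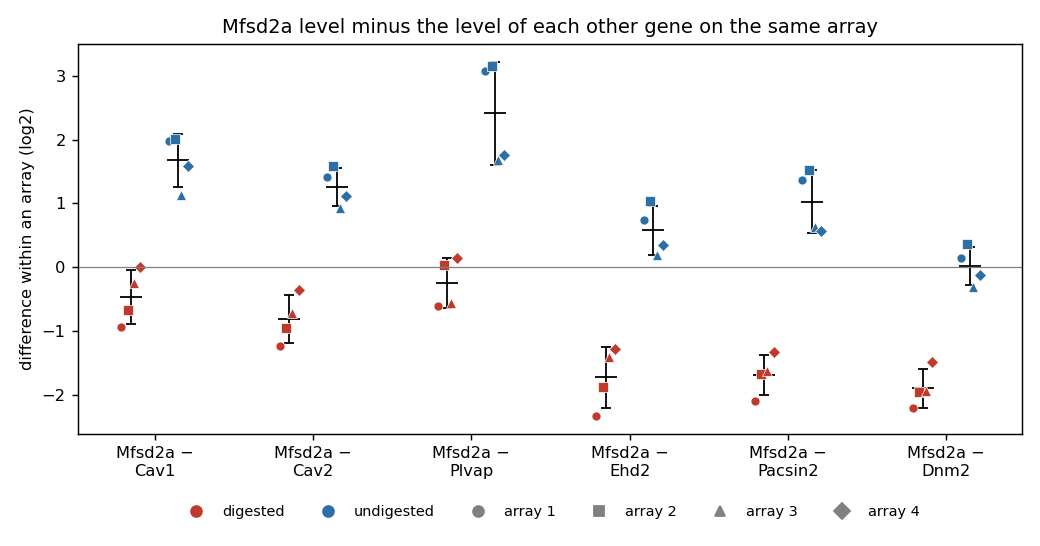
Mfsd2a level minus the level of each other gene on the same array (log2, vertical axis), for digested (red) and undigested (blue) arrays, with mean and SD as black bars and the array number as the symbol. In each of the 6 columns all 4 digested arrays lie below all 4 undigested ones, by -1.92 (Dnm2) to -2.71 (Pacsin2) between the means.

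Endothelial markers were lower in digested vessels as well. Of 31 measured endothelial markers, 14 fell (45.2%, against 9.04% of all named genes) and 0 rose (against 14.4%), with a median difference of -0.38. Their mean level ran between 9.29 and 9.65 in digested and between 9.82 and 10.13 in undigested vessels. Without undigested preparations 1 and 2, 5 fell, and without 3 and 4, 17 fell. Ly6c1 and Robo4, surface proteins of endothelium, fell by 1.56 and 1.01, while Ptprb, a receptor phosphatase of endothelium, differed by -0.03. Each of the 7 genes was therefore also set against the endothelial mean of its own array. Mfsd2a minus that mean was -2.21, -1.86, -1.61 and -1.36 in digested and 0.16, 0.32, -0.21 and -0.16 in undigested vessels, so that a change of -1.79 remained. Relative to the same mean Pacsin2 was higher by 0.92, Plvap by 0.87, Ehd2 by 0.52 and Cav2 by 0.28 in digested vessels. These 5 genes did not overlap between the groups on this scale (exact permutation p = 0.0286, adjusted 0.04). The calls were lost in 6 of the 8 runs that left out 1 array. There the adjusted exact p was 0.05, at the threshold, for Mfsd2a, Cav2, Ehd2 and Pacsin2, and between 0.08 and 0.133 for Plvap. Before adjustment Mfsd2a, Cav2, Ehd2 and Pacsin2 still had the smallest exact p that the remaining arrays allow. Its adjusted value rose because Plvap no longer reached it, so for these genes the loss does not measure their own stability. Without undigested preparations 1 and 2, Plvap differed by 0.39 on this scale (exact permutation, adjusted p = 0.233). Cav1 differed by 0.35 (exact permutation p = 0.0857, adjusted 0.1) and Dnm2 by 0.14 (exact permutation p = 0.114, adjusted 0.114). On this scale the median of all named genes was itself shifted to 0.465, against 0.023 on the deposited scale. Cav1, Cav2 and Dnm2 thus lay below the median gene and Ehd2 close to it, and the sign for Cav1, Cav2 and Dnm2 turned with the scaling. Mfsd2a was lower in digested vessels on both scales.

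The other genes of the caveolar coat and neck showed no change past the test (limma). Of 14, 0 were lowered (against 9.04% of all named genes) and 0 raised (against 14.4%), with a median difference of 0.08. In simulated data the same test recovered 44% of 1.5-fold and 66% of 2-fold changes, so changes of such sizes can be missed. At an unadjusted p of 0.05, 2 were lowered and 2 raised by limma, and 1 was lowered and 1 raised by the methods' t-test, which gave 0 after adjustment. Their mean level ran between 7.73 and 7.91 in digested and between 7.74 and 7.88 in undigested vessels. Among the cavins, which stabilise the coat, Cavin1 averaged 9.28 ± 0.32 in digested and 9.13 ± 0.05 in undigested vessels, and Cavin2 averaged 9.26 ± 0.21 in digested and 9.41 ± 0.22 in undigested vessels (SD, n = 4 each). Flot1, which encodes a flotillin, had the smallest difference of the list, 0.04. Flot2, at 0.34, was the 1 gene of the 14 without overlap between the groups, and missed the threshold (limma, adjusted p = 0.0651). After centring each array on the endothelial markers 8 of the 14 passed as raised, with a median of 0.52 against 0.465 for all named genes. On that scale 14163 of all 27658 clusters passed as raised.

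**Figure D3:**
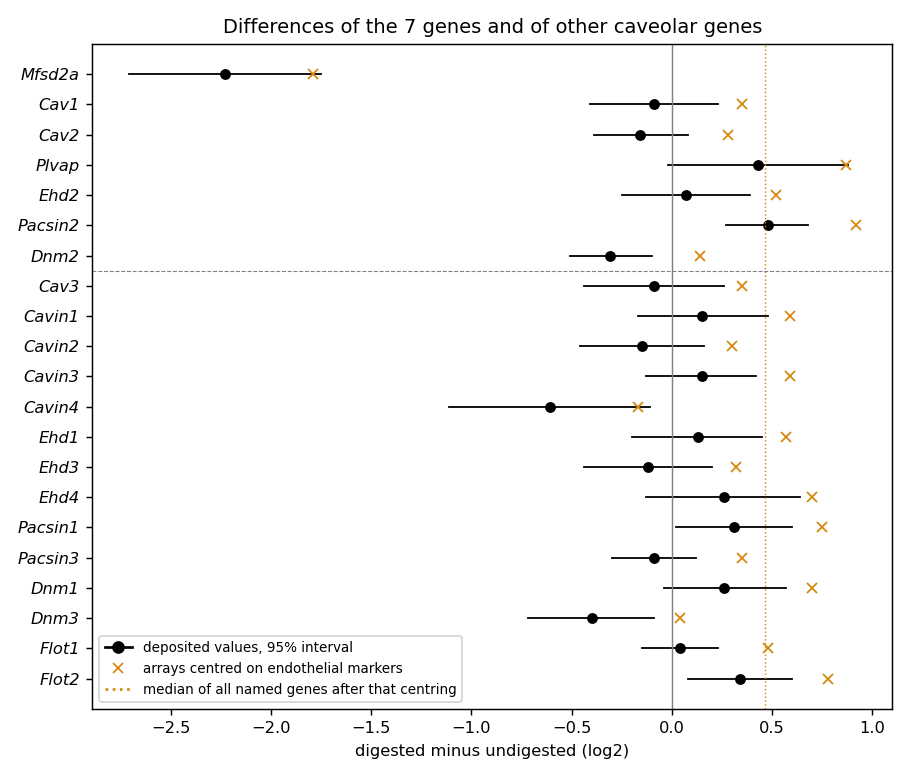
Difference, digested minus undigested (log2, horizontal axis), of the 7 genes (above the dashed line) and of 14 other caveolar coat and neck genes. Black points and lines are the differences on the deposited scale with 95% confidence intervals, orange crosses the differences after each array was centred on the endothelial markers, and the dotted line the median of all named genes on that scale, 0.465. Mfsd2a, at -2.23, stands apart from the rest on both scales.

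Receptors that carry cargo across the endothelium were mostly lower in digested vessels. Of 10 measured receptors of receptor-mediated transcytosis, 7 fell and 1 rose, with a median difference of -0.48. This count, and that of the caveola-associated genes below, stands against 9.04% lowered and 14.4% raised over all named genes. Of the endothelial markers, 45.2% fell. Tfrc, the transferrin receptor, averaged 7.44 ± 0.22 in digested and 8.58 ± 0.41 in undigested vessels (SD, n = 4 each), 2.20-fold lower (limma, adjusted p = 0.00493). Lrp2 and Igf1r, the megalin and insulin-like growth factor receptors, fell by 1.07 and 0.77, and Lepr, the leptin receptor, differed by 0.21 without passing. Lrp2 averaged 4.99 in digested and 6.06 in undigested vessels, so its digested level lay near the background floor of 4.68. Centred on the endothelial markers, 2 of the 10 were lowered and 1 was raised, where 424 of all 27658 clusters passed as lowered and 14163 as raised. Without undigested preparations 1 and 2, 2 of the 10 were lowered and 0 raised. Among 10 receptors and signalling genes associated with caveolae, 5 fell and 2 rose, with a median of -0.43, and without undigested preparations 1 and 2, 2 were lowered and 1 raised. Nostrin, which moves endothelial nitric oxide synthase away from the membrane, averaged 7.33 ± 0.21 in digested and 8.84 ± 0.63 in undigested vessels, 2.83-fold lower (limma, adjusted p = 0.00588). Cd36, a fatty acid receptor, fell by 0.81, to a digested mean of 4.85, near the same floor, from 5.65 in undigested vessels. Aqp1, a water channel that is also a choroid plexus marker, rose 2.99-fold. Src, a tyrosine kinase, differed by 0.24 without passing.

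Genes of other vesicle routes were also measured. Of 18 clathrin coat and adaptor genes, 5 rose (27.8%, against 14.4% of all named genes) and 1 fell (5.6% against 9.04%), with a median of 0.02, against 0.023 over all named genes. Ap2m1, a subunit of the adaptor that links cargo to clathrin, averaged 9.86 ± 0.09 in digested and 9.38 ± 0.07 in undigested vessels (SD, n = 4 each), 1.39-fold higher (limma, adjusted p = 0.00412), and Amph and Bin1, an amphiphysin pair, rose by 0.47 each. Without undigested preparations 1 and 2, 2 of the 18 were raised and 0 lowered. Fcho1, an early clathrin pit protein, had equal means of 7.04. Of 20 vesicle sorting and fusion genes, 4 rose (20%, near the 14.4% of all named genes) and 0 fell, with a median of 0.16. Vamp8, a SNARE of endosomes, rose 2.16-fold (limma, adjusted p = 0.000771), and Exoc4 and Napa, of the exocyst and of SNARE recycling, rose by 0.44 and 0.35. Eea1, an early endosome tether, differed by -0.03. Without undigested preparations 1 and 2, 1 of the 20 was raised.

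The other genes of the transporter family of Mfsd2a passed at about the rate of all genes or below it. Of the 19 measured, 2 fell (10.5%, against 9.04% of all named genes) and 1 rose (5.3%, against 14.4%), with a median difference of -0.05. Flvcr1, listed under its older name Mfsd7b, fell by 0.31 and Mfsd1 fell by 0.28, while Mfsd5 rose by 0.38. Mfsd6 differed by -0.01. Without undigested preparations 1 and 2, 0 were lowered and 0 raised by limma, and 2 were lowered and 1 raised at an unadjusted p of 0.05. Of 19 other genes of fatty acid and lysophospholipid handling, 3 fell (15.8%, against 9.04%) and 2 rose (10.5%, against 14.4%), with a median of 0.00. Fabp7, a fatty acid binding protein of astrocytes, averaged 6.32 ± 0.24 in digested and 8.02 ± 0.15 in undigested vessels (SD, n = 4 each), 3.25-fold lower (limma, adjusted p = 0.000293). Lpcat2, an acyltransferase that remakes phospholipids, rose by 0.93, and Lipg, endothelial lipase, had equal means of 5.77.

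The regulators of barrier endothelium and the genes of peripheral endothelium are the 2 sides between which Mfsd2a and Plvap are usually set. Of 26 barrier regulators 9 fell (34.6%, against 9.04% of all named genes) and 0 rose (against 14.4%), with a median of -0.30. Apcdd1, a Wnt target and inhibitor, averaged 9.54 ± 0.19 in digested and 10.57 ± 0.19 in undigested vessels (SD, n = 4 each), 2.04-fold lower (limma, adjusted p = 0.00132). Lef1, a transcription factor of the Wnt pathway, fell by 0.68 and Foxq1, a forkhead factor, by 0.66, while Lrp6, a Wnt co-receptor, differed by 0.01. Of 9 genes of fenestrated and peripheral endothelium 2 fell (22.2%) and 1 rose (11.1%), with a median of -0.03. Emcn, endomucin, fell by 0.91, and the gene that rose was Aqp1. The apelin receptor Aplnr differed by -0.03. Centred on the endothelial markers, 1 of the 26 barrier regulators was lowered and 6 were raised, and without undigested preparations 1 and 2, 2 were lowered and 0 raised. For the 9 genes of peripheral endothelium these counts were 1 lowered and 4 raised, and 3 lowered and 1 raised. Over all 27658 clusters, endothelial centring gave 424 lowered and 14163 raised. Leaving out undigested preparations 1 and 2 gave 1407 lowered and 1008 raised. Tek, Sox17 and Sox18 of the barrier list and Emcn of the peripheral list are also among the endothelial markers.

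**Figure D4:**
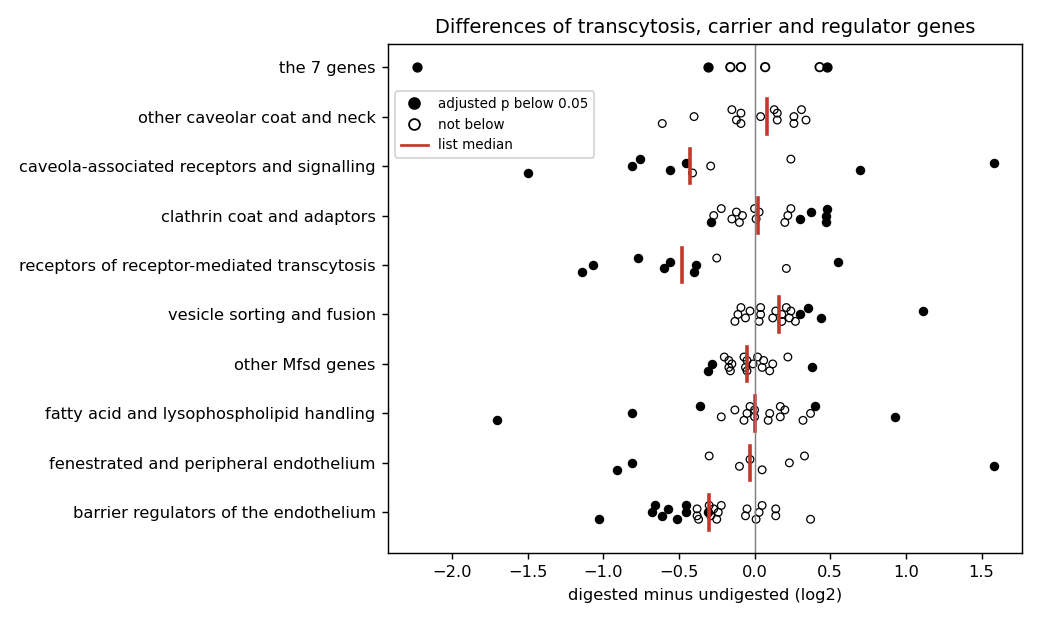
Difference, digested minus undigested (log2, horizontal axis), of the 7 genes and of each measured gene of 9 pathway lists; filled points have an adjusted p below 0.05 and red bars are the list medians. Mfsd2a, at -2.23, lies left of every listed gene, and the other caveolar genes, with a median of 0.08, hold no filled point.

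The genes whose profile over the 8 arrays was most like that of Mfsd2a were sought among all named genes, by the root mean square of the difference between profiles each centred on its own mean. They were Atp13a5 at 0.18, Car4 at 0.28 and Slc7a5 at 0.31, against 1.176 for the median gene. Atp13a5, an ATPase that marks brain pericytes, was at 7.72, 7.74, 8.07 and 8.20 in digested and 10.18, 10.27, 9.78 and 9.60 in undigested vessels. Car4, a carbonic anhydrase of brain capillaries, differed by -1.73 and Slc7a5, the large neutral amino acid transporter of the barrier, by -1.67. All 3 shared with Mfsd2a the higher levels of undigested preparations 1 and 2, which follows from their selection by profile. The profiles nearest to Pacsin2 were those of Car8, Pkia and Bad, at 0.036 to 0.055 against a median of 0.285, and those nearest to Dnm2 were of Retreg3, Adam10 and Srgn, at 0.045 to 0.051 against a median of 0.249. The 3 genes near Pacsin2 were raised and the 3 near Dnm2 lowered, by sizes close to those of the genes they resemble, as the measure requires.

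**Figure D5:**
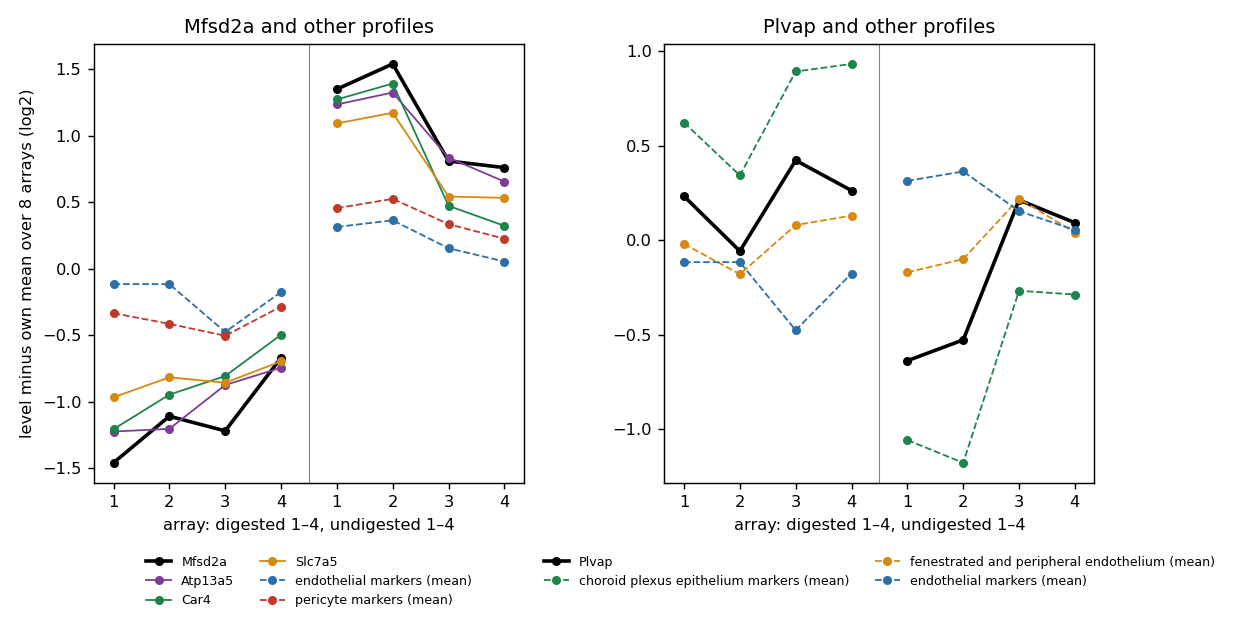
Profiles over the digested and undigested arrays (horizontal axis), each as the log2 level minus its own mean over the 8 arrays; solid lines are genes and dashed lines list means. Atp13a5, Car4 and Slc7a5 were picked for profiles like that of Mfsd2a, so their shared shape follows from the choice. Mfsd2a and these genes have larger steps than the endothelial and pericyte means. Plvap follows the choroid plexus mean in being lowest in undigested arrays 1 and 2. The oligodendrocyte, neuron and smooth muscle means, not drawn, were lowest there too.

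Other cell types of the preparation moved as well, and each is a measured fact beside the Mfsd2a difference. The counts below stand against 9.04% lowered and 14.4% raised over all named genes. Pericytes, which are known to sustain Mfsd2a in endothelium, had 10 of 13 markers lowered, 0 raised and a median of -0.84, with mean levels between 8.40 and 8.62 in digested and between 9.13 and 9.43 in undigested vessels. Abcc9 and Vtn fell by 1.44 and 1.12, and Notch3, shared with smooth muscle, differed by 0.09. Astrocyte markers were lowered in 13 of 16, with a median of -1.28 and mean levels between 7.15 and 7.55 in digested and between 8.31 and 8.72 in undigested vessels. Aqp4, the endfoot water channel, fell by 2.48 and Gfap by 2.04, and Sox9 differed by -0.02. Perivascular fibroblast markers were lowered in 8 of 14 (median -0.64), microglia and macrophage markers in 8 of 13 (median -0.78) and ependymal markers in 7 of 10 (median -1.40). Without undigested preparations 1 and 2 the fibroblast median was -0.86 and the microglia and macrophage median -1.12, and without preparations 3 and 4 they were -0.41 and -0.37, with 6 and 5 markers lowered. Of smooth muscle markers 1 of 14 was lowered, Casq2, and 1 was raised, Cnn1, but the median was 0.49 and 12 of the 14 were raised at an unadjusted p of 0.05 (limma). With median centring 8 of them passed as raised, and with endothelial centring 13. Of all 27658 clusters, 4523 passed as raised with median centring and 14163 with endothelial centring. Neuron markers were raised in 4 of 12 and oligodendrocyte markers in 6 of 11, against 0 and 3 without undigested preparations 1 and 2. Undigested preparations 3 and 4 differed from 1 and 2 by 0.39 in the astrocyte mean, -0.24 in the endothelial mean and -0.20 in the pericyte mean. No label names this division. The part of these cell types in the Mfsd2a difference was not tested, and the endothelial centring above is a change of scale.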

How the data were processed

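RNA of 4 digested and 4 undigested brain vessel preparations was measured, 1 array each, in groups taken from the sample titles. The tissue label says mechanical extraction for both groups, and the enzymatic step comes from the methods. Per the methods, the authors checked the arrays in Expression Console, used EASANA with FAST DB annotation, corrected background by antigenomic probes and normalized by quantiles. The values, deposited as 1 series table, were read as log2 from their range. Which program wrote it is not given in the sources used here, and the array medians ran from 5.58 to 5.71. Arrays have no read depth, and their number limits the precision.

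Of 41345 clusters, 23521 had 1 symbol in the platform annotation, 1820 several and 16004 none, and 23328 were matched to RefSeq (GRCm38.p6) by Entrez identifier, with 0 symbols changed. The floor, 4.68, was the 90th percentile of the means of 1400 olfactory and vomeronasal receptor clusters, which kept 27658 clusters. The test was limma (version 3.58.1, R 4.3.3), fitted without covariates by lmFit and moderated by eBayes, two-sided, with p adjusted by Benjamini-Hochberg over the 27658 clusters and a threshold of 0.05. The steps were tested on simulated data. Differences within an array were compared by an exact two-sided permutation over 70 assignments, adjusted over 6 or 7 differences. Lists are described by counts and medians. p-values measure the spread between pooled preparations. The 7 genes, the lists, the division of arrays 1 and 2 against 3 and 4 and the tests were chosen with earlier results of these data known. Beside the 7 genes, up to 3 genes of each list with the largest differences past the test and without overlap, the 1 with the smallest difference, and the 3 nearest profiles were named; Cavin1, Cavin2 and Flot2 were named after their values were seen. Alternatives were other centring, a second quantile normalization, no or a stricter filter, trend and robust eBayes, array weights, a replicate block, the methods' t-test, averaging a gene's clusters, and leaving out arrays. Figures were drawn with matplotlib 3.10.9 in Python 3.11.15.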

Additional observations from a re-analysis of the deposited data

Results flagged for a closer look

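The mean of the 26 barrier regulators was 8.66 in digested preparation 3, against 8.88, 8.89 and 8.91 in the other digested preparations, and this gap was larger than Dixon's limit for 4 values allows. It was the 1 case among the 78 groups of 4 examined, where chance gives about 1 in 20. The same preparation had the lowest digested level of Cav1, Cav2, Ehd2, Pacsin2 and Dnm2. It also had the lowest digested marker means of endothelium (9.29), smooth muscle (9.43) and pericytes (8.40).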

How the results depend on the processing

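Mfsd2a stayed lowered past the threshold under each of 21 alternatives (adjusted p 0.000163 to 0.00744). Leaving out 1 array, its difference ran between -2.38 and -2.09, that of Pacsin2 between 0.44 and 0.53, Dnm2 -0.38 and -0.27, Plvap 0.29 and 0.57, Cav2 -0.22 and -0.09, Cav1 -0.18 and 0.02 (positive without digested array 3), and Ehd2 -0.01 and 0.21 (negative without digested array 1). Centring on the endothelial markers turned Cav1 to 0.35, Cav2 to 0.28 and Dnm2 to 0.14 and brought Plvap (0.87) and Ehd2 (0.52) past the threshold. Plvap also passed with arrays 1 and 2 against 3 and 4 as a block (0.43) and without undigested arrays 3 and 4 (0.80). Without undigested arrays 1 and 2, Pacsin2 (0.38) and Dnm2 (-0.21) no longer passed. Dnm2 also failed with median centring (-0.22, adjusted p = 0.11), the methods' t-test (-0.31, adjusted p = 0.0519), no filter (-0.31, adjusted p = 0.061) and the replicate block (-0.31, adjusted p = 0.0717). The cause was not tested.

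Relative to the endothelial mean, the differences without 1 array were -1.92 to -1.64 for Mfsd2a, 0.27 to 0.31 for Cav2, 0.70 to 1.04 for Plvap, 0.46 to 0.57 for Ehd2, 0.85 to 1.01 for Pacsin2, 0.30 to 0.45 for Cav1 and 0.07 to 0.18 for Dnm2. Each of the 5 calls was lost in 6 of these 8 runs (adjusted exact p of 0.05, and 0.08 to 0.133 for Plvap). They were kept without undigested array 3 or 4. In the 6 runs Mfsd2a, Cav2, Ehd2 and Pacsin2 were still at the smallest exact p that the arrays allow before adjustment. Cav1 passed without undigested array 3 (0.45, adjusted exact p = 0.0333). Without undigested arrays 1 and 2 the values were 0.39 for Plvap and 0.71 for Pacsin2, and without undigested arrays 3 and 4 they were 1.36 and 1.13. Against the median of the endothelial markers in place of their mean, Dnm2 passed (0.29, adjusted exact p = 0.0333). The gap of Mfsd2a to Plvap and Pacsin2 was -1.96 and -2.28 without undigested arrays 1 and 2, and -3.36 and -3.13 without undigested arrays 3 and 4.

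Of 27658 clusters, 5872 passed, 2813 lowered and 3059 raised, and 47.9% of them were lowered, against 29.7% with median centring, which moved the median of all named genes to 0.111. Endothelial centring gave 14587 (424 lowered, 14163 raised), and leaving out undigested arrays 1 and 2 gave 2415 (1407 lowered, 1008 raised). Without 1 array, 4047 to 5610 passed, 2001 to 2736 lowered and 2028 to 2874 raised. Arrays with the same number correlated in their deviations from the group means at 0.0602, 0.182, -0.0436 and 0.178, so the numbers were not taken to pair the samples. With the replicate block 5442 clusters passed. After adjustment, which the methods did not use, their t-test called 3 of 13 microglia and macrophage markers as lowered, against 8 by limma. It lowered 5 of 26 barrier regulators, against 9, and 3 of 10 caveola-associated genes, against 5. It raised 7 of 20 vesicle sorting genes, against 4. At the same threshold without adjustment, the t-test lowered 9, 12 and 6 genes of the first 3 lists and raised 9 vesicle sorting genes. Limma without adjustment lowered 10, 13 and 6 and raised 9. Each of the 7 genes has 1 cluster, so the mean of all clusters changed none of their values.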
